A study of Homo sapiens with 7 samples.

Results

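The loci described here are the 10 genes that encode the subunits of the hypoxia-inducible factors (HIF) and the enzymes that sense oxygen for them. They are the alpha subunit genes HIF1A, EPAS1 and HIF3A, the beta subunit genes ARNT and ARNT2, the prolyl hydroxylase genes EGLN1, EGLN2 and EGLN3, the asparaginyl hydroxylase gene HIF1AN, and VHL. The list holds these genes by name, and no threshold on a measured value selects them. Each gene was taken with 20 kb on both sides, on the human build hg19, and a peak of 5-hydroxymethylcytosine (5-hmC) was assigned to such a window by its midpoint. The 10 windows cover 985 kb and hold 1199 of the 1873636 peaks in the 6 deposited lists (0.0640%), or 255 of 415416 regions once overlapping peaks of all lists are merged. All samples are genomic DNA of wild-type SK-N-BE(2) cells, an established neuroblastoma line with amplified MYCN, grown in RPMI medium with fetal bovine serum. One condition is normoxia, 21% oxygen at 0 h, and the others are hypoxia, 1% oxygen for 6, 12, 24, 48 or 72 h. Each time is 1 library and 1 list of positions, so the values carry no replicate error and 2 times compared are 2 libraries compared. No later normoxia library was analysed here, and low oxygen and time in culture cannot be told apart.

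HIF is a dimer of an alpha and a beta subunit that binds DNA and turns on genes of glycolysis, red cell production and vessel growth when oxygen is low. In ample oxygen the EGLN enzymes hydroxylate prolines of the alpha subunits, the VHL protein recognises the hydroxylated form and brings it to degradation, and HIF1AN hydroxylates an asparagine that blocks the binding of co-activators. 5-hmC is made from 5-methylcytosine by the TET enzymes, which, like the EGLN enzymes and HIF1AN, use oxygen and 2-oxoglutarate, and in many tissues it lies in the bodies of active genes and at enhancers. EGLN1 and EGLN3 are themselves known targets of HIF.

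Promoter sequences from RefSeq (GRCh38.p14) matched 8 of the 10 genes. VHL and ARNT2 were not matched. The 250 bases before the start of 5 genes are shown, 5′ to 3′ in the direction of transcription: EGLN1 and EGLN3, whose covered length also rose relative to the lists before adjustment for multiple tests, ARNT and HIF1AN, called higher with EGLN1 at 72 h, and EPAS1, the alpha subunit gene that gained least. Capitals mark ACGTG or GCGTG, the core letters that HIF dimers bind, on either strand.
EGLN1: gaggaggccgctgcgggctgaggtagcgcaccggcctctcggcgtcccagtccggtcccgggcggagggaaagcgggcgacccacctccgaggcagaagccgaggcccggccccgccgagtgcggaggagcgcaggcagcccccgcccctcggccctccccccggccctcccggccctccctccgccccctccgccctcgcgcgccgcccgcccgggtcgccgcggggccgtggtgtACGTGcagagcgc
EGLN3: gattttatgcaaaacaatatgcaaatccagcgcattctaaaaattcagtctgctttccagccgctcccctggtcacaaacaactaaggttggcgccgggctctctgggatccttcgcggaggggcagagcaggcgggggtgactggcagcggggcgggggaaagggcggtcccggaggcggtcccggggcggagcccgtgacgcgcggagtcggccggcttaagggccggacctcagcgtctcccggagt
ARNT: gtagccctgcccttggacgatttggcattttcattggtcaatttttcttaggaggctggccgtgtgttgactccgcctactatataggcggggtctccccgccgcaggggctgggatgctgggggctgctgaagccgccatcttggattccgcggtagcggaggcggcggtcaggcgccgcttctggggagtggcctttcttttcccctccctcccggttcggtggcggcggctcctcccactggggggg
HIF1AN: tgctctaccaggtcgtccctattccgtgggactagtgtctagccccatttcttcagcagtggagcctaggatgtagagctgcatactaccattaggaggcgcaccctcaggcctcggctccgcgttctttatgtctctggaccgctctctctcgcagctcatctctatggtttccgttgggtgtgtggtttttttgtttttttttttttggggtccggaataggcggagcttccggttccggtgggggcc
EPAS1: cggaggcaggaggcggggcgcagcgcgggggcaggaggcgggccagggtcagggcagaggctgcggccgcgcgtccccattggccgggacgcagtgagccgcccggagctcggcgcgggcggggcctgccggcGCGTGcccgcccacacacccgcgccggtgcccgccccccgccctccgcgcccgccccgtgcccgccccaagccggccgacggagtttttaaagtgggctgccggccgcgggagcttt
Within these bases EGLN1 had 1 ACGTG, EPAS1 had 1 GCGTG, and EGLN3, ARNT and HIF1AN had neither motif. Of the matched genes not shown, EGLN2 had ACGTG on both strands of 1 site before one of its starts, HIF3A had 3 GCGTG and HIF1A 1. Over all 12 promoters of the 8 genes 5 held either motif and 2 held ACGTG. Of 35116 promoters of the same length, 43.2% held either motif and 18.5% held ACGTG, so the presence of one was common. The sequence cytosine-guanine, the usual site of 5-methylcytosine and so of 5-hmC, stood 38 times in the EPAS1 promoter, 36 times in that of EGLN1, 23 times in that of EGLN3, 18 times in that of ARNT and 13 times in that of HIF1AN, against a median of 11 over all promoters. The sequences are on another build than the lists, so whether a peak covers these bases cannot be told here.

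The reference for all values is how the whole lists changed. The length covered by peaks on all chromosomes was 147 Mb at 0 h and 192 Mb at 72 h, a ratio of 1.31, with ratios to 0 h of 1.07, 1.05, 1.13 and 1.22 at 6, 12, 24 and 48 h. Values of a window are therefore given as its covered share (the percent of its bases inside peaks) and as its relative ratio (its covered length divided by that at 0 h, then divided by the same ratio of the whole lists). A relative ratio of at least 1.5 was called higher and one of at most its inverse lower, by size alone and with no test. The background is the share of 17982 tiles of 100 kb past the same limit. Ranks of a covered share are instead among all 24373 tiles with a peak, sparse ones included, and so stand higher. Read depth is unknown, since the lists hold positions alone, and the narrowest peak ran from 226 bp in the 0 h list to 242 bp in the 72 h list. A part of depth or peak calling in any change was not tested.

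The 10 windows together held 176 peaks in normoxia and 190, 182, 196, 227 and 228 in the hypoxia lists from 6 to 72 h. Their covered length was 92.2, 99.7, 96.7, 109, 130 and 134 kb in the same order. Their combined length at 72 h was 1.46 times that at 0 h, against 1.31 for the whole lists. All 10 windows had more covered bases at 72 h than at 0 h, and the share of tiles that did was not computed. Relative to the lists 7 of 10 gained more. Most tiles did so too: only 42.3% of tiles had a lower relative ratio at 72 h than EGLN2, at 1.00. The median relative ratio of the 10 at 72 h was 1.10, against 1.05 over the tiles. EGLN1, ARNT and HIF1AN were called higher at 72 h, 3 of 10 windows beside 11.7% of tiles, and no window was called lower, beside 1.11% of tiles. In tiles of 50 kb these backgrounds were 15.5% and 2.77%, and in tiles of 250 kb, longer than all 10 windows, 7.8% and 0.257%. The same 3 windows were called at 48 h (9.33% of tiles), and HIF1AN alone at 6 h (2.5%), 12 h (2.28%) and 24 h (4.28%). None was called lower at these times, where 1.31%, 1.21%, 0.417% and 0.578% of tiles were (6, 12, 24 and 48 h). The calls rest on the 0 h library, where HIF1AN held 3 peaks and ARNT 5, the lowest covered shares of the 10 windows. In such sparse windows few added peaks can pass the limit, and no share was computed for tiles as sparse. With the 6 h list as the reference no window was called, and the relative ratio at 72 h was 1.44 for EGLN1, 1.38 for EGLN3, 1.24 for HIF1AN and 1.16 for ARNT. By number of peaks in place of covered length only HIF1AN was called. With no division by the list totals 5 windows were (EGLN1, ARNT and HIF1AN with HIF3A and EGLN3). HIF3A, called there at 1.54, had a relative ratio above that of 66.9% of tiles. No share of tiles was computed under these settings, so these counts have no background.

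**Figure D1:**
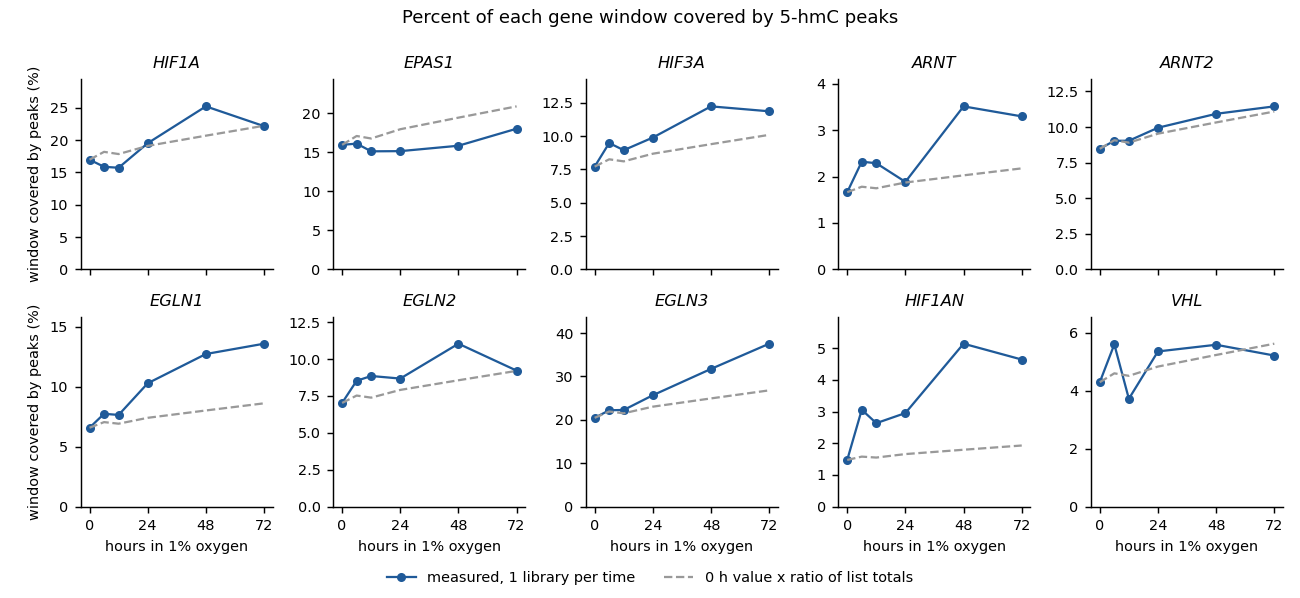
Percent of each gene window covered by 5-hmC peaks (vertical axis, from 0) against hours in 1% oxygen (horizontal axis), 1 library per time. The dashed line is the 0 h value multiplied by the ratio of the whole lists: EGLN3 reaches 37.6% and EGLN1 13.6% at 72 h, above their lines, while EPAS1, at 18.0%, lies below its line.

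The relation of covered length to hours was measured by Pearson's r and by Spearman's rho, with two-sided exact permutation p from all 720 orders of the 6 lists. By r, 7 of the 10 windows rose at an unadjusted p under 0.05, and 59.1% of tiles did. After Benjamini-Hochberg adjustment over 17992 features 4 windows rose (EGLN3, ARNT2, EGLN1 and HIF3A), beside 43% of tiles. By rho 5 rose unadjusted, beside 33.9% of tiles, and 2 after adjustment (EGLN3 and ARNT2), beside 7.31%. None fell by either measure, beside 0.406% of tiles by r and 0.206% by rho. When the covered length was divided by the list total, so that a window had to outpace its list, only EGLN1 and EGLN3 rose at an unadjusted p under 0.05, beside 17.3% of tiles by r and 9.9% by rho. None fell, beside 12.5% and 7.48%, and neither these 2 windows nor any tile passed after adjustment. Even the smallest p that 720 orders can give had an adjusted p of 0.0698 by r and 0.105 by rho. So no feature could pass, and the adjusted result cannot tell a rise from none. With 1 list left out the count by r was 3 without 0 h, 4 without 6 h, 3 without 12 h and 4 without 24 h, and it was 5 or 6 without 48 or 72 h. ARNT2, EGLN1 and EGLN3 were among the rising windows each time. By rho it was 2 without 0, 24, 48 or 72 h and 3 without 6 or 12 h. Fewer lists give fewer orders, so p can rise, and a call be lost, where r does not fall.

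Among the alpha subunit genes, HIF1A and EPAS1 lay in dense 5-hmC and HIF3A in a thinner field. HIF1A encodes the alpha subunit present in most cells. Its window (chr14:62142001-62235000) had covered shares of 17.0% in normoxia and 15.9%, 15.7%, 19.5%, 25.2% and 22.2% from 6 to 72 h. The 6 and 12 h libraries were below normoxia, the 48 h library was highest, and at 0 h 92.3% of all tiles with a peak had a lower share. The relative ratio was 0.87, 0.88, 1.02, 1.22 and 1.00 from 6 to 72 h, so at the last time HIF1A had gained as much as the lists as a whole. Its covered length gave r = 0.83 (exact permutation p = 0.0472, adjusted p = 0.0801), and r was 0.69 without 48 and 72 h. The rho was 0.71 (exact permutation p = 0.136, adjusted p = 0.202). With any 1 list left out r stayed between 0.80 and 0.94. Its exact permutation p, then from fewer orders, was 0.05 to 0.133, so the unadjusted call was lost.

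Within HIF1A the last part of the gene gained most. The last of 3 equal parts of the gene was covered to 4.24% in normoxia and 4.64%, 8.59%, 10.2%, 35.0% and 20.1% from 6 to 72 h. From 0 to 72 h the first part had 26.3%, 21.4%, 21.5%, 22.5%, 26.9% and 20.5%, with no such gain, and the middle part had 25.3%, 28.5%, 23.8%, 33.5%, 27.4% and 31.6%, a smaller one. Peaks centred in the 20 kb after the gene covered 4.44 kb at 0 h and 6.62 kb at 72 h. The widest region held by all 5 hypoxia lists and not at 0 h, chr14:62215917-62217029, stood there, with 330, 291, 748, 1084 and 1009 bp of peaks from 6 to 72 h (2 peaks at 24 and 72 h, 1 at the others). A second such region in the last part of the gene, chr14:62201042-62201822, named after its values were seen, held peaks of 298, 454, 458, 595 and 781 bp. Of the 41 merged regions of HIF1A, 4 in the gene were held by the 48 and 72 h lists alone and 5 by the 48 h list alone. A single peak, chr14:62169654-62169886 of 233 bp, was in normoxia alone. No peak centre stood within 2 kb of the 5′ end of the gene at 6, 12, 48 or 72 h, and 1 did at 0 and 24 h.

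EPAS1 encodes the alpha subunit known for endothelium, kidney and cells of the sympathetic lineage, from which neuroblastoma arises. Its window (chr2:46504001-46634000) changed least of the alpha subunit genes, with shares of 16.0% in normoxia and 16.1%, 15.1%, 15.2%, 15.8% and 18.0% from 6 to 72 h. The 72 h library alone stood above the other 5. The relative ratio stayed under 1 at each time (0.94, 0.90, 0.84, 0.81 and 0.86), and at 72 h 17.8% of tiles had a lower one. Neither r (0.69, exact permutation p = 0.113, adjusted p = 0.153) nor rho (0.14, exact permutation p = 0.803, adjusted p = 0.832) passed, r was -0.80 without 48 and 72 h, and it was -0.14 without 72 h alone. Divided by the list total the r was -0.73 (exact permutation p = 0.0986, adjusted p = 0.241).

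The widest peak of all members at 0 h lay in EPAS1, 39.9 kb into the gene: 4386 bp at chr2:46561773-46566158. In the later lists the same stretch held 2 peaks, the wider of which measured 2773, 2670, 2659, 2596 and 2568 bp from 6 to 72 h. Both together covered 4220, 4351, 4080, 4105 and 4140 bp there, so little of the length was lost. In EPAS1 19 of 34 regions were in all 6 lists (46.8% of regions on all chromosomes were), and 30 of 36 peaks at 72 h lay over a 0 h peak (83.3%, 95% Clopper-Pearson interval 67.2 to 93.6, which holds the 70.3% of all chromosomes). No region of EPAS1 was in all 5 hypoxia lists and absent at 0 h. A peak of 237 bp at chr2:46540826-46541062 was in normoxia alone.

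**Figure D2:**
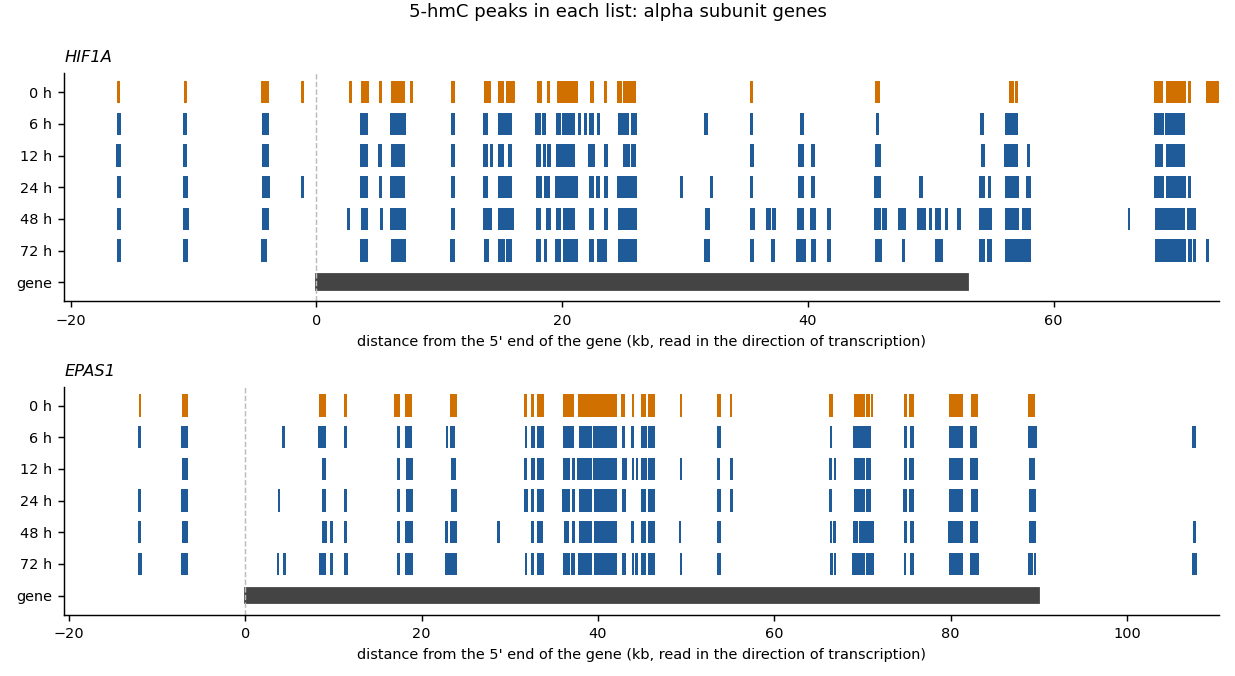
Each bar is 1 peak, placed by its distance from the 5′ end of HIF1A (top) and EPAS1 (bottom) in kb, with 1 row per list (0 h in orange, hypoxia in blue) and the gene as a dark bar. In HIF1A the last part of the gene fills at 48 and 72 h, and in EPAS1 the peak of 4386 bp at 0 h is 2 peaks in each later list.

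HIF3A, whose products include forms that restrain the other alpha subunits, had covered shares of 7.71% in normoxia and 9.49%, 8.95%, 9.89%, 12.2% and 11.9% from 6 to 72 h over its window (chr19:46780001-46867000). The 5 hypoxia libraries were all above normoxia, as the totals of the whole lists were. The relative ratios were 1.15, 1.10, 1.14, 1.30 and 1.18. The share of tiles above normoxia in all 5 was not computed. The covered length rose with hours (r = 0.91, exact permutation p = 0.0111, adjusted p = 0.0353; r = 0.80 without 48 and 72 h), but rho did not pass after adjustment (0.89, exact permutation p = 0.0333, adjusted p = 0.0976). Without 0 or 12 h r was 0.90 (exact permutation p = 0.0583, from fewer orders). Its peaks stood at both ends. The first of 3 equal parts of the gene was covered to 20.2% at 0 h and 28.2% at 72 h, the last part to 3.87% and 6.35%, and the middle part held no peak centre in any list. The peak region that widened most, chr19:46803299-46804516, is 3.91 kb into the gene and measured 689, 774, 271, 747, 785 and 1182 bp from 0 to 72 h. In peaks of at least 500 bp alone the relative ratio of HIF3A at 72 h was 1.75, past the limit of 1.5. By number of peaks the ratio was 0.98. No share of tiles was computed for either measure, so the limit has no background there.

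The beta subunit genes differed in density and in gain. ARNT encodes the beta subunit found in most cells, which also pairs with the aryl hydrocarbon receptor. Its window (chr1:150762001-150870000) was the thinnest of the 10 in the 5 hypoxia lists, with 5, 7, 8, 6, 11 and 9 peaks and covered shares of 1.66%, 2.32%, 2.29%, 1.89%, 3.51% and 3.30% from 0 to 72 h. The 48 and 72 h libraries stood apart from the other 4, and the 24 h library was near normoxia. The relative ratio was 1.30, 1.31, 1.01, 1.73 and 1.52 from 6 to 72 h. The call at 72 h is close to the limit: it was 1.46 by number of peaks, 1.28 with the same number of peaks per list, 1.16 without the 20 kb flanks and 1.45 in peaks of at least 242 bp. The r with hours was 0.85 (exact permutation p = 0.0472, adjusted p = 0.0801), and it was 0.10 without 48 and 72 h. With any 1 list left out r was between 0.80 and 0.90. Its exact permutation p, then from fewer orders, was 0.05 to 0.133, so the unadjusted call was lost. The rho was 0.71 (exact permutation p = 0.136, adjusted p = 0.202). The flank added to the call: no peak stood in the 20 kb before the gene at 0 h and 3 did at 72 h, 1 of them in the region chr1:150863771-150864091 with 241, 241, 296, 255 and 297 bp from 6 to 72 h. No peak was found in the 20 kb after the gene in any list.

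ARNT2 encodes a beta subunit of neurons and kidney and is the longest of the 10 loci (chr15:80676001-80911000). Its covered share was 8.47% in normoxia and 9.03%, 9.04%, 9.95%, 10.9% and 11.5% from 6 to 72 h, more at each step. The covered length rose with hours by r (0.98, exact permutation p = 0.00139, adjusted p = 0.0236; 0.97 without 48 and 72 h) and by rho (1, exact permutation p = 0.00278, adjusted p = 0.0379), and both unadjusted p are the smallest that 720 orders can give. ARNT2 rose with the lists and not beyond them. The relative ratio was 1.00, 1.02, 1.04, 1.06 and 1.03, and 47.7% of tiles had a lower one at 72 h. Of its 53 regions 29 were in all 6 lists and 4 in all 5 hypoxia lists but not at 0 h, the widest of them chr15:80855685-80856202 with 433, 359, 411, 413 and 276 bp. The region that widened most, chr15:80852818-80853952, lies 157 kb into the gene and went from 680 to 1088 bp, and another, chr15:80744403-80745295, went from 782 to 434 bp.

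Of the prolyl hydroxylase genes, EGLN3 and EGLN1 gained covered length at nearly every step and EGLN2 did not. EGLN3 encodes a prolyl hydroxylase known to be strongly induced by HIF. Its window (chr14:34373001-34441000) was the densest of the 10 from 0 h, where 94.9% of all tiles with a peak had a lower share, to 72 h, where 98.8% did. It was covered to 20.5% in normoxia and 22.2%, 22.3%, 25.7%, 31.7% and 37.6% from 6 to 72 h. Each library was above all earlier ones, and most of the gain came after 24 h. In bases the length went from 13919 at 0 h to 17460 at 24 h and 25540 at 72 h. The r with hours was 0.997 (exact permutation p = 0.00139, adjusted p = 0.0236; 0.97 without 48 and 72 h) and the rho 1 (exact permutation p = 0.00278, adjusted p = 0.0379). Relative to the lists the ratio was 1.01, 1.04, 1.11, 1.27 and 1.40 from 6 to 72 h, an increase at each time, under the limit of 1.5, with 84.2% of tiles lower at 72 h. The relative length gave r = 0.997 (exact permutation p = 0.00139, adjusted p = 0.0698) and rho = 1 (exact permutation p = 0.00278, adjusted p = 0.105), which did not pass after adjustment. In peaks of at least 500 bp alone the ratio at 72 h was 1.72, and by number of peaks it was 1.10. No share of tiles was computed for either measure.

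The gain in EGLN3 lay in the first and middle parts of the gene and before it. The gene itself was covered to 32.2% at 0 h and 57.4% at 72 h, and peaks centred in the 20 kb before it covered 3.999 kb and 7.63 kb. The first of 3 equal parts of the gene was covered to 14.5%, 25.9%, 25.7%, 29.3%, 49.6% and 57.1% from 0 to 72 h, and the middle part to 35.8%, 42.8%, 44.4%, 38.9%, 61.2% and 66.9%. The last part, at 46.3%, 26.7%, 34.3%, 43.8%, 38.8% and 48.2%, was the most covered at 0 h and the least at 72 h. The widest peak of the window at 72 h lies 3.12 kb from the 5′ end, at chr14:34416880-34418886. It was 1 peak of 461 bp in normoxia. From 6 to 72 h the region held 3, 2, 3, 2 and 1 peaks with a summed length of 1082, 756, 1374, 1859 and 2007 bp, so the widening is in part a joining of separate peaks. Around the 5′ end, chr14:34421045-34421934 held 1 peak in each list, of 538, 448, 440, 848, 814 and 810 bp, with the step between 12 and 24 h. This region, and chr14:34399121-34399714, where a peak of 543 bp at 0 h was 302 bp at 6 h and absent from 12 h on, were chosen after their values were seen. Of the 39 regions 19 were in all 6 lists, 1 in all 5 hypoxia lists and not at 0 h (chr14:34425880-34426254, at -5.07 kb from the 5′ end), and 6 at 72 h alone.

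EGLN1 encodes the prolyl hydroxylase that is the main setter of HIF levels in ample oxygen. Its window (chr1:231479001-231581000) was covered to 6.58% in normoxia and 7.74%, 7.64%, 10.3%, 12.7% and 13.6% from 6 to 72 h. The 24, 48 and 72 h libraries stood above those of 6 and 12 h, which were just above normoxia. The totals of the whole lists split in the same way (1.07 and 1.05 times 0 h, then 1.13, 1.22 and 1.31). The split was seen in the values themselves, and the share of tiles with it was not computed. Its rank among all tiles with a peak went from 70.2% to 83.9% with a lower share. The relative ratio was 1.10, 1.11, 1.39, 1.59 and 1.58 from 6 to 72 h, past the limit at 48 and 72 h, and 90.6% of tiles had a lower one at 72 h. By number of peaks (14, 16, 16, 19, 23 and 24) it was 1.39 at 72 h, under the limit. The covered length rose by r (0.97, exact permutation p = 0.00278, adjusted p = 0.0244; 0.96 without 48 and 72 h), and its rho of 0.94 did not pass after adjustment (exact permutation p = 0.0167, adjusted p = 0.0641). Relative to the lists it gave r = 0.93 (exact permutation p = 0.00417, adjusted p = 0.0759) with rho = 0.94 (exact permutation p = 0.0167, adjusted p = 0.145).

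The first of 3 equal parts of EGLN1 was covered to 12.0% in normoxia and 16.0%, 16.3%, 22.3%, 28.6% and 26.7% from 6 to 72 h. The middle part went from 12.4% at 0 h to 21.2% at 72 h and the last from 5.48% to 13.5%, so all 3 parts gained, the first by the most bases. The 4 regions of EGLN1 held by the 72 h list alone were all in the last part. The region chr1:231551436-231552777, with the widest peak at 72 h, held 3 peaks at 0 h, 2 at 6 and 12 h and 1 from 24 h on. Their summed length was 1060, 999, 1107, 1268, 1319 and 1331 bp, so the peaks joined and added few bases. New regions stood beside it. Its neighbour chr1:231550251-231551007 had no peak at 0 h, then 334, 333, 604, 714 and 659 bp, and chr1:231548941-231549662 had none, then 254, 292, 339, 658 and 538 bp. A further region, chr1:231552931-231553564, had peaks at 48 h (634 bp) and 72 h (578 bp) alone. The last 2 were picked after their values were seen. Before the gene no peak was found in the first 4 lists, and 1 peak of 283 bp at 48 h and 268 bp at 72 h had its centre at -0.382 and -0.395 kb from the 5′ end (chr1:231561241-231561529), where the end itself is known to 1 kb. Of the 24 peaks at 72 h, 11 overlapped a 0 h peak (45.8%, 95% Clopper-Pearson interval 25.6 to 67.2), against 70.3% over all chromosomes. The 70.3% lay above the interval of EGLN1 alone and inside the interval of every other window. No adjustment was made for the number of windows looked at. The interval covers counting alone and treats neighbouring peaks of a locus as independent, so a difference from all chromosomes was not tested.

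**Figure D3:**
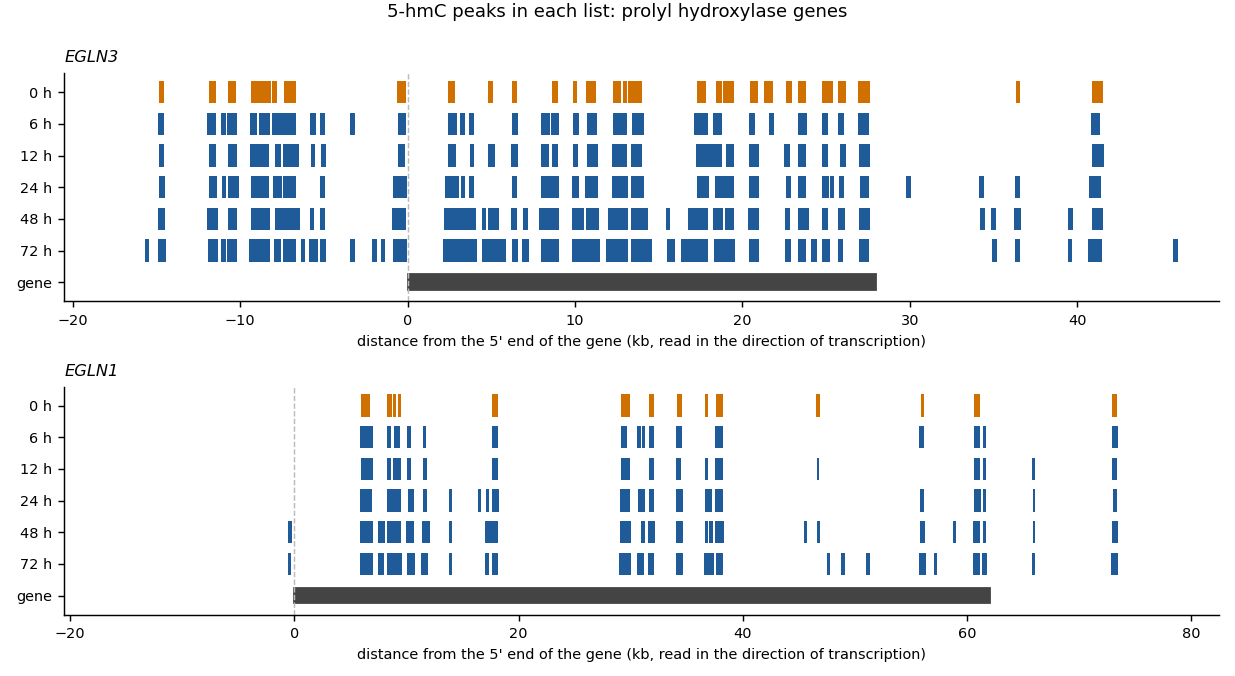
Each bar is 1 peak, placed by its distance from the 5′ end of EGLN3 (top) and EGLN1 (bottom) in kb, read in the direction of transcription, with 1 row per list (0 h in orange, hypoxia in blue) and the gene as a dark bar. In EGLN3 the peaks of the first part of the gene widen and join toward 72 h, and in EGLN1 peaks between 6 and 14 kb are added and join.

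EGLN2 encodes a prolyl hydroxylase that, unlike EGLN1 and EGLN3, is not known to be induced by HIF. Its window (chr19:41285001-41335000) held 8, 9, 7, 9, 9 and 8 peaks and was covered to 7.02% in normoxia and 8.53%, 8.85%, 8.68%, 11.0% and 9.21% from 6 to 72 h. The 48 h library stood above the rest, and at 72 h the relative ratio was 1.00. The r with hours was 0.66 (exact permutation p = 0.175, adjusted p = 0.219) and the rho 0.89 (exact permutation p = 0.0333, adjusted p = 0.0976), so neither passed after adjustment, and without 72 h the r was 0.93 (exact permutation p = 0.025). All but 2 of its 8 regions were in all 6 lists. The 1 region in all 5 hypoxia lists but not at 0 h, chr19:41310269-41311121, lies 5.69 kb into the gene and had 542, 325, 561, 596 and 496 bp of peaks (2 peaks at 24 and 48 h).

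HIF1AN had the largest relative ratios of the 10 windows on the smallest base. At 0 h 3 peaks covered 869 bp of its window (chr10:102275001-102334000), or 1.47%, the lowest share of the 10. It then had 4, 5, 5, 9 and 8 peaks and shares of 3.06%, 2.63%, 2.95%, 5.14% and 4.64% from 6 to 72 h. All hypoxia libraries were above normoxia, as the totals of the whole lists were. The share of tiles with this order was not computed. The largest steps lay between 0 and 6 h and between 24 and 48 h. The relative ratio was 1.94, 1.70, 1.78, 2.86 and 2.41, with 98.6% of 100 kb tiles lower at 72 h, tiles longer than this window of 59 kb. With the 6 h list as the reference it was 1.24 at 72 h. The r with hours was 0.87 (exact permutation p = 0.025, adjusted p = 0.0537), and it was 0.65 without 48 and 72 h. The rho was 0.77 (exact permutation p = 0.103, adjusted p = 0.168). Without 0, 6, 12 or 24 h the r was 0.85 to 0.91, with an exact permutation p, from fewer orders, between 0.05 and 0.0917. The early step included 1 region in the last part of the gene, chr10:102311342-102311845, with no peak at 0 h and 458, 398, 457, 430 and 420 bp from 6 to 72 h. It neighbours a region held by all 6 lists, of 342, 487, 393, 424, 497 and 385 bp. The middle of 3 equal parts of the gene held no peak centre in any list.

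VHL, the recognition subunit of the ubiquitin ligase, showed no steady order in time. Its window (chr3:10163001-10216000) held 6, 9, 6, 7, 8 and 6 peaks, and its covered share was 4.29% in normoxia and 5.59%, 3.72%, 5.35%, 5.58% and 5.21% from 6 to 72 h. The 12 h library was below normoxia and the others above it. The relative ratio was 1.22, 0.82, 1.11, 1.07 and 0.93, and neither r (0.43, exact permutation p = 0.407, adjusted p = 0.454) nor rho (0.14, exact permutation p = 0.803, adjusted p = 0.832) passed. Near the 5′ end, chr3:10184190-10185408 held the widest peak of the window at 0 h (607 bp) and at 72 h (886 bp), and 931, 806, 732 and 671 bp of peaks between (2 peaks at 6 and 12 h). The 20 kb before the gene held no peak centre in any list, and the last of 3 equal parts of the gene none either.

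The size of these ratios can be set beside the spread between libraries only indirectly. The 6 and 12 h lists have nearly the same total length, and over the tiles the middle 95% of the relative ratio of 12 h to 6 h ran from 0.726 to 1.38. For the 10 windows it ran from 0.677 (VHL) to 1.06. At 72 h against 0 h the middle 95% of the 100 kb tiles ran from 0.719 to 2.12, and HIF1AN alone of the 10 lay outside it. The HIF1AN window, of 59 kb, is shorter than these tiles. Ratios spread more in shorter tiles (15.5% called higher at 50 kb, against 11.7% at 100 kb). The 1 Mb on both sides of each window gives a local reference. Its relative ratio at 72 h was 0.94 around EGLN1 (window 1.58), 0.98 around HIF1AN (window 2.41), 1.12 around ARNT (window 1.52) and 1.20 around EGLN3 (window 1.40). For EPAS1 it was 0.92 and the window 0.86. In all, 5 of 10 windows exceeded their surroundings. Windows denser than their surroundings were 5 of 10 at 0 h and 6 at 72 h. EGLN3 and HIF1A were far denser. Around EGLN3 the cover was 4.70% at 0 h (window 20.5%) and 7.38% at 72 h (window 37.6%). Around HIF1A it was 3.86% (window 17.0%) and 5.24% (window 22.2%).

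**Figure D4:**
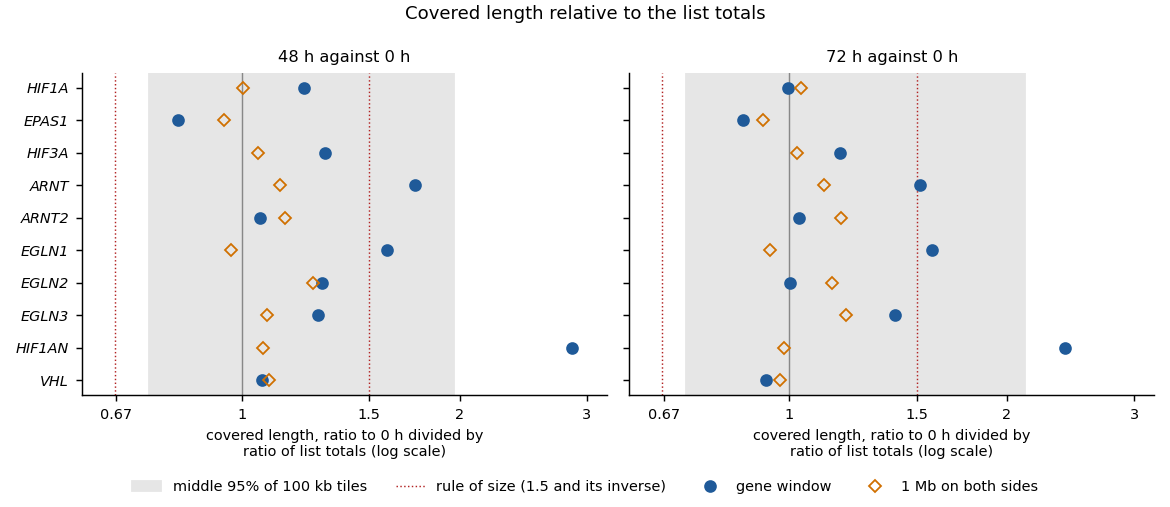
Relative ratio (covered length against 0 h, divided by the ratio of the whole lists, log scale) of each gene window (filled circle) and of the 1 Mb on both sides of it (open diamond), at 48 h and at 72 h. The grey band is the middle 95% of the 100 kb tiles and the dotted lines are 1.5 and its inverse: at 72 h EGLN1 (1.58), ARNT (1.52) and HIF1AN (2.41) lie past 1.5.

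The profiles of some members were alike. Each gene was matched to the member with the highest Pearson r of relative covered length over the 6 lists, given as a description since all points share the same 6 libraries. No such match was computed for tiles, so whether members were more alike than other windows was not tested. EGLN1 and EGLN3 were each near the other (r = 0.93), HIF3A was most like HIF1AN (0.98), ARNT most like HIF1AN (0.91), ARNT2 most like EGLN1 (0.89), HIF1A most like ARNT2 (0.81) and EGLN2 most like HIF3A (0.67). EPAS1 had no like member, with a highest r of 0.01 to VHL, and the highest for VHL was 0.23, to HIF3A. In the order of genes on GRCh38.p14 the windows' nearest neighbours differ from locus to locus, among them RAB4B beside EGLN2, BRK1 beside VHL, SNAPC1 beside HIF1A, NDUFB8 beside HIF1AN and SPRTN beside EGLN1. Whether a peak in a flank lies in such a neighbour was not analysed here.

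Most peaks of the members were already there in normoxia. Of their 176 peaks at 0 h, 163 overlapped a 72 h peak (92.6%, 95% Clopper-Pearson interval 87.7 to 96.0), against 89.8% on all chromosomes. Of the 228 at 72 h, 153 overlapped a 0 h peak (67.1%, 60.6 to 73.2), against 70.3%. The intervals cover counting alone. Among the 87 regions with 1 peak in each list 65 were wider at 72 h than at 0 h (74.7%, against 71.2% of all such regions). By the lists that hold them, 123 of 255 merged regions were in all 6 (48.2%, against 46.8% on all chromosomes), 14 in all 5 hypoxia lists but not at 0 h (5.49%, against 2.99%), 14 at 48 and 72 h alone (5.49%, against 3.61%) and 2 in normoxia alone (0.784%, against 1.84%). With peaks merged over gaps of up to 300 bp the second count was 9, and in peaks of at least 500 bp it was 7. The largest hypoxia class of a single library was 48 h alone, with 18 regions (7.06%, against 3.44%), and 17 were at 72 h alone (6.67%, against 7.12%). The classes from 12 h on and from 24 h on lay below their background, with 2 regions each (0.784%, against 1.39% and 1.94%). Regions absent at 0 h were 104 of 255 over the members (40.8%), against 37.3% on all chromosomes. They were 9 of 12 in HIF1AN, 8 of 13 in ARNT and 15 of 27 in EGLN1. The count was 18 of 41 in HIF1A, 16 of 39 in EGLN3, 7 of 19 in HIF3A, 19 of 53 in ARNT2, 3 of 9 in VHL, 2 of 8 in EGLN2 and 7 of 34 in EPAS1. These counts rest on the same peaks as the covered length, and the other genes lay nearer to the share of all chromosomes than HIF1AN or ARNT.

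**Figure D5:**
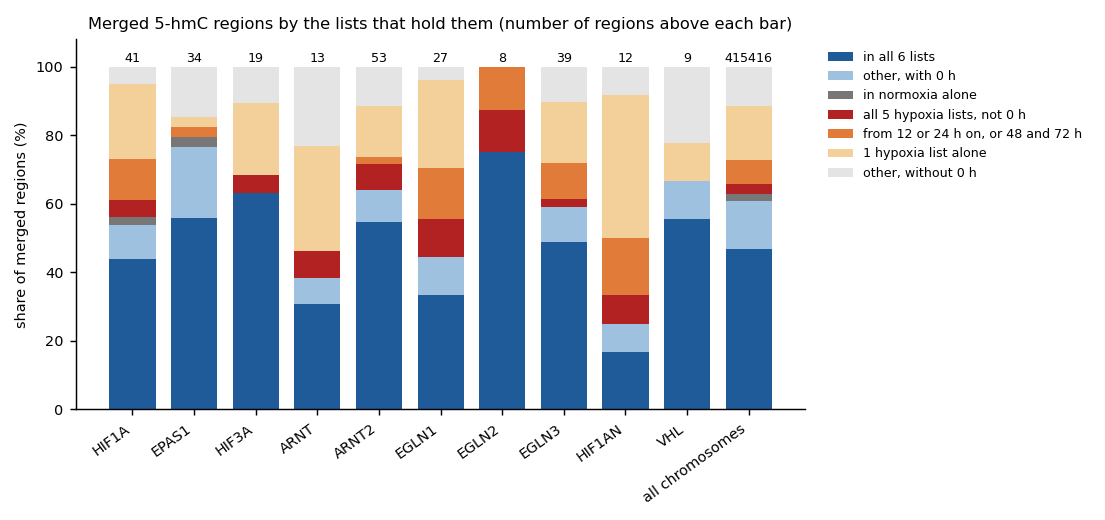
Share of merged 5-hmC regions (vertical axis, percent) in each gene window and on all chromosomes, by the lists that hold them, with the number of regions above each bar. Regions without a 0 h peak make up 9 of 12 in HIF1AN and 7 of 34 in EPAS1.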

How the data were processed

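Genomic DNA sheared to 300 bp was labelled at 5-hmC through a glucosyltransferase and click chemistry, captured on streptavidin and sequenced, per the labels' protocols. Of 7 samples in the series 1 is an input, not analysed here, and 6 are captured libraries, grouped by the time and oxygen in their labels. Each deposited list, made by the authors, gives chromosome, start and end of its peaks in base pairs. The submitters' processing notes name BWA 0.7.17, MACS2, HTSeq and hg19, without role or order. The peak threshold, and the role of the input in it, is not given in the sources used here. Depth is unknown.

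Gene windows on hg19 are known to 1 kb, and the gene is the window less its 20 kb flanks. Peaks were assigned by midpoint, and for covered length they were taken whole. Tiles of 100 kb on chromosomes 1 to 22 and X with a mean covered length of at least 2 kb (17982 of 24373 with a peak) gave the background. Ranks of covered share used all 24373. Peaks were shared at an overlap of 1 bp. Peaks of all lists that overlap or touch were merged into regions. Permutation p-values over 720 orders compare 6 single libraries, were adjusted by Benjamini-Hochberg over the tiles and windows together, and measure no replicate error. Peaks described by position were the widest at 0 and 72 h, the widest in hypoxia or normoxia alone, and those with 1 peak per list that widened or narrowed most, with exceptions said. The members, lists and tests were chosen with earlier results of these data known. The gene and promoter tables are on GRCh38.p14, so other genes of the pathway were not analysed here. Alternatives were peak number, peaks of at least 500 bp, equal list lengths, 6 h as the reference, no flanks, no scaling, other tiles, overlaps or gaps, and each list left out. Added after seeing the data were peaks of at least 242 bp, the 1 Mb surroundings and the gene in 3 parts. Scripts were tested on simulated lists. Python 3.11.15, NumPy 2.4.6, pandas 2.3.3, SciPy 1.17.1 and Matplotlib 3.10.9 were used.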

Additional observations from a re-analysis of the deposited data

How the results depend on the processing

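With 1 library per time, no replicate error stands behind any value, and peak positions alone cannot separate depth or peak calling from 5-hmC. No paired analysis was possible because each time has 1 library, and the replicate number only names it. A stricter score or q was not run, since the lists hold neither. HIF1AN and ARNT have no peak of at least 500 bp at 0 h and gave no ratio there. The number of windows called higher at 72 h was 3. It was 1 by number of peaks, 0 with 6 h as the reference and 5 with no scaling, and none was called lower under any of these. In peaks of at least 500 bp it was 4 (HIF3A, EGLN1, EGLN3 and ARNT, the last over a base of 0). No share of tiles was computed under these other settings, so these counts have no background. By the reported rule the share of tiles called higher was 15.5% in tiles of 50 kb and 7.8% in tiles of 250 kb. The number rising by r was 7. It was 2 relative to the list total, 4 with the same number of peaks per list and 4 without flanks, and leaving out 1 list gave 3 to 6. Fewer lists give fewer orders, so a call by r can be lost there without a smaller r. The number rising by rho was 5, then 2 relative to the list total and 3 without flanks, and 2 to 3 with 1 list left out. Kept normoxia peaks, 92.6%, were 73.3% at an overlap of 0.5 of both peaks, 98.4% in peaks of at least 500 bp and 86.4% with equal list lengths. The reverse share, 67.1%, was 56.1%, 89.1% and 76.1%. Regions in all 5 hypoxia lists but not at 0 h, 14, were 9 over gaps of 300 bp and 7 in peaks of at least 500 bp, and those in normoxia alone went from 2 to 1 over such gaps and to 3 in the wider peaks or with equal list lengths. The r with hours changed sign for EPAS1 relative to the list total (-0.73) and with 1 list left out (from -0.14 without 72 h to 0.79 without 48 h), for VHL relative to the list total (-0.21) and by number of peaks (-0.14), and for HIF1AN in peaks of at least 500 bp (-0.37). Of 188 values of single genes under these settings 136 kept their side of the limit (an r also its sign), 41 lost it, 6 gained it and 5 changed sign. Of 68 ratios at 72 h 15 lay on the other side of 1 than the reported one, 4 each for HIF1A and EGLN2, 3 for VHL, 2 for EPAS1 and 1 each for HIF3A and ARNT2.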
